A study of Mus musculus with 11 samples.

Results

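The genes described here are 10 hypoxia-inducible genes of mouse mammary tumour cells: Hif1a, Egln1, Egln3, Vegfa, Adm, Bnip3, Ddit4, Ndrg1, Ankrd37 and Car9. They were chosen by name, all 10 had 1 row in a table of 23835 named genes, and none was left out for a low value. Each row is the probe set of 1 Entrez Gene identifier, and its value is a log2 signal, so a difference of 1 is a 2-fold change. The cells came from 3 stages of 1 tumour model and were measured on 11 Affymetrix arrays. All carry MMTV-rtTA and TetO-Wnt1, transgenes through which doxycycline switches on Wnt1 under a promoter active in mammary epithelium. All were marked with H2B-eGFP, a fluorescent histone, grown orthotopically in female nu/nu mice, which lack a thymus but keep innate immune cells, and isolated again from the lesions as cells positive for GFP. The series title calls them Wnt1-Prim1 cells, without saying whether that is 1 tumour, line or clone. The 4 primary tumour arrays are labelled untreated, the 3 residual lesion arrays were taken 28 days after doxycycline withdrawal, and the 4 recurrent tumour arrays after withdrawal and regrowth, with no day given. The labels state neither the age of the mice nor whether each array had its own mouse, so p values here measure the spread between these arrays, which may be technical.

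Cells sense oxygen through a transcription factor made of a labile alpha subunit, such as HIF1A, and a stable partner, ARNT. In the presence of oxygen the prolyl hydroxylases of the Egln family mark the alpha subunit, the VHL ligase binds it and it is degraded, while in low oxygen it accumulates and switches on genes of glucose use, vessel growth, mitochondrial turnover and pH control. Regulation is mainly at the level of protein, so Hif1a mRNA does not measure the activity of the factor, and some target genes, Vegfa and Ddit4 among them, also answer to other signals. In tumours these genes are known as markers of poorly perfused tissue.

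The factor binds a core of 5 bases, ACGTG or GCGTG, on either strand. The RefSeq promoter windows of GRCm38.p6, from 250 bases before to 50 bases after the annotated start, were matched for 9 of the 10 members, with 2 windows for Vegfa. They are shown for Egln3, Bnip3, Ankrd37 and Car9, whose levels moved between stages or arrays. Ddit4 is shown too, because its mean moved the other way in residual cells. Adm, whose recurrent arrays lay further apart from lowest to highest than those of any member but Car9, is not shown. Its window held GCGTG at 2 sites and no ACGTG. Hif1a, whose level moved between stages, is not shown either. The Hif1a window held 3 matches to ACGTG, counted on both strands, and no GCGTG. The Egln3 window is chr12:54203825-54204124 on the minus strand, that of Bnip3 chr7:138909457-138909756 on the minus strand, that of Ankrd37 chr8:45999801-46000100 on the minus strand, that of Car9 chr4:43506776-43507075 on the plus strand, and that of Ddit4 chr10:59951721-59952020 on the minus strand. Each is written 5′ to 3′ in the direction of transcription, and capitals mark the core on either strand, where CACGT and CACGC are its reverse complements.
Egln3: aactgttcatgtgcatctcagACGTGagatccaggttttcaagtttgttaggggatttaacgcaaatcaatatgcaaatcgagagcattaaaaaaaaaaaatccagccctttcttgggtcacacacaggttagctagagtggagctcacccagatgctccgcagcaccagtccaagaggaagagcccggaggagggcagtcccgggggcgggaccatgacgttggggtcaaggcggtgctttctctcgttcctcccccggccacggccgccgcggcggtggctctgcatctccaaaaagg
Bnip3: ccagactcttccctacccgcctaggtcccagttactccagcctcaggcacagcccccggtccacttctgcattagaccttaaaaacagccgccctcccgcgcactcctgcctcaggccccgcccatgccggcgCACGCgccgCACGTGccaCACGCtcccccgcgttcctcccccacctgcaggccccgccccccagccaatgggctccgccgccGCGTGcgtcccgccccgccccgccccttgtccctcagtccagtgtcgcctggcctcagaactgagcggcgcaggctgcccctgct
Ankrd37: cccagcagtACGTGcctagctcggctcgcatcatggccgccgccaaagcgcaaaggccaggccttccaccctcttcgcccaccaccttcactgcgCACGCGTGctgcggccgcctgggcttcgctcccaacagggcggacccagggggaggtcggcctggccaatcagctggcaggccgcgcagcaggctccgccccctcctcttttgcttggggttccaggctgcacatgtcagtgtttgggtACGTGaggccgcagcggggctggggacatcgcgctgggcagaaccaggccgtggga
Car9: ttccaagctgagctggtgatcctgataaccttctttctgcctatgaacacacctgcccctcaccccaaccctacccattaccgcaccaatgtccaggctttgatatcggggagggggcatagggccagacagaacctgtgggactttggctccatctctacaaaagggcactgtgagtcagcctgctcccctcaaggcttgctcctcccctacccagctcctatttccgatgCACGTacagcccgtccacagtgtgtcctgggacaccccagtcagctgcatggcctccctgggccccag
Ddit4: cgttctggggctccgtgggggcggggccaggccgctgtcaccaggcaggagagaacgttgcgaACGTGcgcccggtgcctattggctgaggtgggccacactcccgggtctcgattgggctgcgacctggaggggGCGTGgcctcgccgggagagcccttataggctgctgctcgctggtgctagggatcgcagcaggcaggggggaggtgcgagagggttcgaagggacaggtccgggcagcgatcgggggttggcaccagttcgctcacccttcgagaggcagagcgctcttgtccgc

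At least 1 core stood in 9 of the 10 member windows, against 43.8% of all 32851 windows in the reference table. ACGTG stood in 8 of the 10 windows against 19.6% of all windows, and GCGTG in 6 against 32.4%. Among the 14253 windows with at least the GC content of the least GC-rich member window, 54.7%, a core stood in 63.8%, ACGTG in 25.4% and GCGTG in 53.1%, so the share with GCGTG was close to that of GC-rich windows. Bnip3 held 5 matches, where the palindrome CACGTG counts on both strands, and the Car9 match began 18 bases before the start. The upstream Vegfa window held none, which says only that these letters are not in that window. The Vegfa matches counted above stood in its downstream window, chr17:46025114-46025413 on the minus strand. Members were chosen as genes known to respond to hypoxia, so these shares are a description.

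In residual cells against primary tumour cells, the oxygen sensor Egln3, the mitochondrial receptor Bnip3 and Hif1a itself were lower, by 13.8-fold, 4.07-fold and 2.43-fold. In recurrent against residual cells Egln3 and Hif1a were higher, by 12.8-fold and 1.58-fold. The Egln3 sizes are not exact, because residual 1 read inside the background range defined below. The Bnip3 call, and that of Hif1a in recurrent against residual cells, depended on the settings and arrays used, as given below. No member passed between recurrent and primary cells. The 4 recurrent arrays, however, were spread widely: recurrent 3 read above all primary arrays for 5 members and recurrent 1 read below all primary arrays for 8. Of all 23835 genes, 23.8% read above all primary arrays on recurrent 3 and 27.3% below them all on recurrent 1. Tests were made with limma in 1 model of the 11 arrays and adjusted by the Benjamini-Hochberg method over all 23835 genes, and a gene passed at an adjusted p under 0.05.

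**Figure D1:**
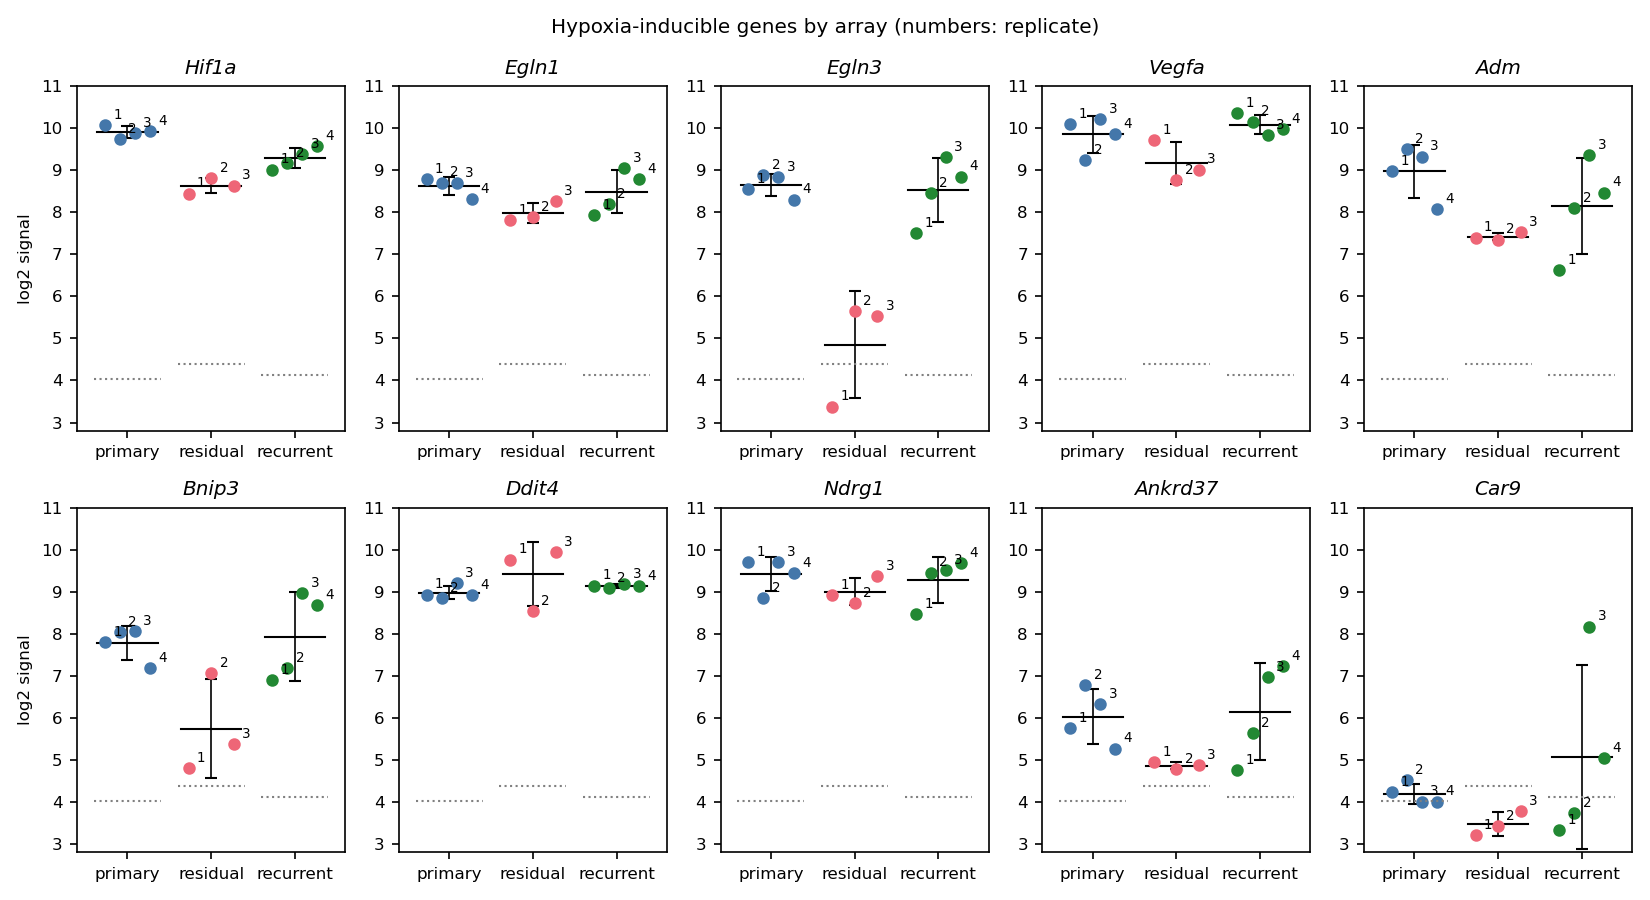
Log2 signal (vertical axis) of the 10 members on the primary, residual and recurrent arrays. Points are arrays numbered by replicate, bars are group means with 1 SD (n = 4, 3 and 4), and dotted lines mark the upper limit of the background range in each group. Egln3 sits at 3.38 to 5.64 on the residual arrays and at 7.50 to 9.31 on the recurrent arrays, and Car9 at 8.17 on recurrent 3 alone.

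Hif1a, the alpha subunit, read 10.08, 9.73, 9.89 and 9.93 on the primary arrays, 8.44, 8.81 and 8.63 on the residual arrays, and 9.01, 9.17, 9.38 and 9.57 on the recurrent arrays. The groups were ordered without overlap, primary highest and residual lowest. Its difference was -1.28 in residual against primary cells (SE 0.16, adjusted p = 0.000334, limma) and 0.66 in recurrent against residual cells (SE 0.16, adjusted p = 0.0327, limma). The second of these passed no longer under 11 of 20 alternative settings, with adjusted p from 0.0216 to 0.118 over all 20, among them removal of primary 3, primary 4, residual 1, residual 3, recurrent 3 or recurrent 4. Recurrent against primary cells gave -0.62 (95% interval -0.94 to -0.30, adjusted p = 0.0596, limma), which missed the threshold and passed under 5 of 20 alternatives, adjusted p from 0.0317 to 0.158. Hif1a was the member whose recurrent arrays stayed below every primary array.

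Egln3, a hydroxylase that marks the alpha subunit and is itself induced by hypoxia, read 8.56, 8.88, 8.83 and 8.30 on the primary arrays, 3.38, 5.64 and 5.54 on the residual arrays, and 7.50, 8.45, 9.31 and 8.84 on the recurrent arrays. Every residual array lay below every other array, and residual 1 fell inside the background range, taken as everything under the 95th percentile of the olfactory receptors, sensory genes of the nose, which was 4.36 there. The difference was -3.79 in residual against primary cells (SE 0.53, adjusted p = 0.000765, limma) and 3.67 in recurrent against residual cells (SE 0.53, adjusted p = 0.00191, limma). Both calls held under all 20 alternatives tried, including each array left out in turn. Over these the differences ran from -4.19 to -3.05 and from 2.94 to 4.07. Because residual 1 fell inside the background range, the sizes are not exact. These comparisons share the residual arrays, so they are not independent of each other. Recurrent against primary cells gave -0.12 with an interval of -1.18 to 0.95, so differences of nearly 2-fold in either direction lie inside it.

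Egln1, the main oxygen sensor of most cells, passed in no comparison. It read 8.78, 8.70, 8.70 and 8.31 on the primary arrays, 7.82, 7.88 and 8.26 on the residual arrays, and 7.93, 8.20, 9.05 and 8.79 on the recurrent arrays. Residual and primary arrays did not overlap, but the difference of -0.64 missed the threshold (adjusted p = 0.129, limma). The recurrent arrays parted, with replicates 3 and 4 above all primary arrays and replicates 1 and 2 below them.

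Vegfa, the growth factor that draws in vessels, read 10.09, 9.24, 10.20 and 9.86 on the primary arrays, 9.72, 8.77 and 9.01 on the residual arrays, and 10.35, 10.15, 9.82 and 9.98 on the recurrent arrays. Primary and residual arrays overlapped, while all recurrent arrays lay above all residual arrays. The difference was -0.68 in residual against primary cells (adjusted p = 0.126) and 0.91 in recurrent against residual cells (adjusted p = 0.0712, limma for both). Without residual 1 these were -0.96 and 1.19 and both passed, and without primary 2, on which Vegfa read lowest of its group, both passed as well. Unlike any other member, Vegfa was highest on recurrent 1 and lowest on recurrent 3 among the recurrent arrays.

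Adm, the vasodilator peptide adrenomedullin, read 8.98, 9.50, 9.32 and 8.07 on the primary arrays, 7.39, 7.35 and 7.52 on the residual arrays, and 6.63, 8.10, 9.36 and 8.47 on the recurrent arrays. The residual arrays were tightly grouped, with an SD of 0.09, and lay below all primary arrays. The difference of -1.55 between residual and primary cells missed the threshold (SE 0.52, adjusted p = 0.0775, limma), and it passed without recurrent 1 (adjusted p = 0.0161) or without recurrent 3 (adjusted p = 0.0381). Recurrent 1 read below all 3 residual arrays and recurrent 3 above 3 of the 4 primary arrays.

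Bnip3, a mitochondrial membrane protein that marks mitochondria for removal, read 7.80, 8.04, 8.05 and 7.19 on the primary arrays, 4.80, 7.06 and 5.38 on the residual arrays, and 6.89, 7.18, 8.97 and 8.69 on the recurrent arrays. Residual 2 stood well above the other residual arrays and just under primary 4. The difference was -2.03 in residual against primary cells (SE 0.59, adjusted p = 0.0435, limma) and 2.19 in recurrent against residual cells (SE 0.59, adjusted p = 0.0518, limma). The first call was lost under 10 of 20 alternatives, among them removal of any 1 primary array, of residual 1 or of residual 3, and without residual 2 the difference was -2.68. The second passed under 6 of 20 alternatives.

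Ddit4, an inhibitor of the growth kinase mTORC1, was the member whose residual mean exceeded the primary mean. It read 8.93, 8.85, 9.20 and 8.91 on the primary arrays, 9.76, 8.53 and 9.95 on the residual arrays, and 9.14, 9.08, 9.17 and 9.14 on the recurrent arrays. Residual 1 and residual 3 lay above every primary array and residual 2 below them all. The difference of 0.44 did not pass (interval -0.15 to 1.03, adjusted p = 0.348, limma), and without residual 2 it was 0.88 with an adjusted p of 0.0032. Across the recurrent arrays Ddit4 hardly varied, with an SD of 0.04, smaller than that of all but 1.08% of the 13637 genes that exceeded the background range on at least 3 arrays, called genes above background here.

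Ndrg1, a stress-responsive cytoplasmic protein, read 9.71, 8.84, 9.69 and 9.43 on the primary arrays, 8.91, 8.73 and 9.37 on the residual arrays, and 8.46, 9.45, 9.52 and 9.68 on the recurrent arrays. The groups overlapped in every comparison, and the differences lay between -0.42 and 0.28 with adjusted p values of 0.436 to 0.89 (limma). Ankrd37, an ankyrin repeat protein, read 5.76, 6.78, 6.32 and 5.27 on the primary arrays, 4.94, 4.78 and 4.87 on the residual arrays, and 4.76, 5.64, 6.96 and 7.22 on the recurrent arrays. Its residual arrays lay below all primary arrays, but -1.17 missed the threshold (SE 0.53, adjusted p = 0.191, limma). Its recurrent arrays spanned both sides of the primary range, replicate 1 below it and replicates 3 and 4 above it, and the difference from residual cells was 1.28 (SE 0.53, adjusted p = 0.204, limma).

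Car9, the cell-surface carbonic anhydrase IX that acidifies the space around hypoxic cells, read 4.24, 4.51, 4.01 and 4.01 on the primary arrays, 3.21, 3.43 and 3.78 on the residual arrays, and 3.34, 3.73, 8.17 and 5.04 on the recurrent arrays. It exceeded the background range on 5 of 11 arrays, on 3 primary arrays only narrowly, so recurrent 3 and recurrent 4 are the arrays with a signal clearly apart from background. Recurrent 3 read 3.97 above the primary mean, which itself lay at the edge of the background range, so no fold is given. The group comparison gave 0.88 for recurrent against primary cells (interval -0.89 to 2.64, adjusted p = 0.716, limma), and -0.15 without recurrent 3.

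**Figure D2:**
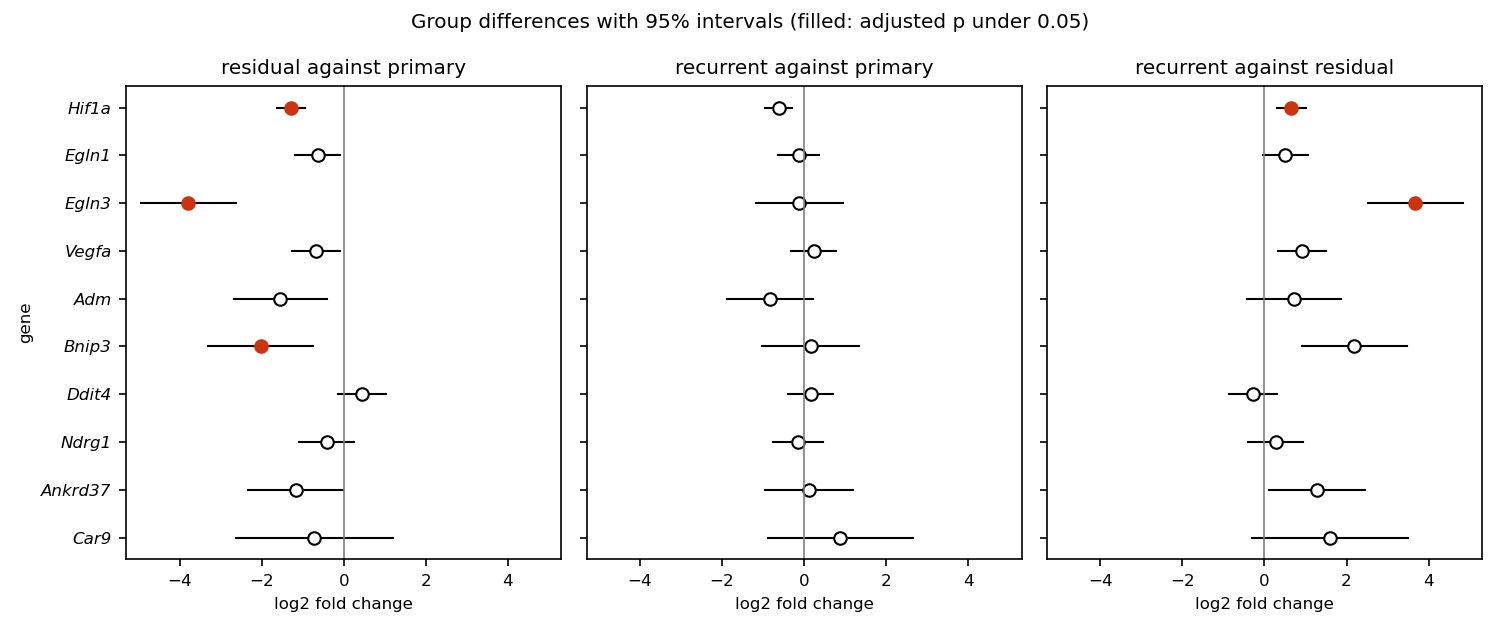
Log2 fold changes (horizontal axis) of the 10 members in 3 comparisons, with 95% intervals from limma; filled points passed at an adjusted p under 0.05. Egln3, Bnip3 and Hif1a lie below 0 in residual against primary cells, Egln3 and Hif1a above 0 in recurrent against residual cells, and no point is filled for recurrent against primary cells.

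Counted over the 10 members, 3 were lower and 0 higher in residual against primary cells. Over all genes 12.4% passed in that comparison, 4.81% higher and 7.61% lower (1146 higher and 1814 lower, or 899 and 2333 with arrays centred on their medians). The members' median was -0.94, against 0.03 over all genes, and 9 of 10 had a negative difference. The arrays of both groups did not overlap for 7 of the 10 members, against 24.8% of all genes. Fitted on only the residual and primary arrays, 7 members were lower: Egln1, Egln3, Car9, Ankrd37, Bnip3, Adm and Hif1a. In that fit 3165 of all genes passed, 1219 higher and 1946 lower. Car9 lay inside the background range on every residual array. In recurrent against residual cells 2 members were higher and 0 lower, where 5.78% of all genes passed and 3.58% were higher. The members' median there was 0.82 against -0.03 over all genes, and 3 members, against 15.5% of all genes, did not overlap. The number of members that passed there ran from 1 to 4 as single arrays were left out, with 4 without residual 2 or without recurrent 1, and was 1 with the replicate block. In recurrent against primary cells 0 of 10 members passed in limma, where 1.8% of all genes did, 0.818% higher and 0.986% lower. At an unadjusted p under 0.05 it was 1 member, Hif1a, and the members' median of 0.00 stood beside -0.01 over all genes. For 1 member, Hif1a, the recurrent and primary arrays did not overlap, against 9.02% of all genes.

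For 8 of the 10 members the recurrent arrays were spread more widely than the primary arrays, Vegfa and Ddit4 being the exceptions. The SD over the recurrent arrays was 2.19 for Car9, 1.16 for Ankrd37, 1.14 for Adm, 1.05 for Bnip3 and 0.77 for Egln3, each larger than that of at least 94.0% of the 13637 genes above background, whose median SD was 0.28 in the recurrent group and 0.20 in the primary group. The primary arrays gave SDs of 0.24, 0.66, 0.63, 0.41 and 0.27 for these genes. Those of Ankrd37 and Adm were already larger than that of 97.7% and 97.5% of the genes above background in the primary group. The residual arrays gave 0.29, 0.08, 0.09, 1.17 and 1.28 in the same order. Bnip3 and Egln3 thus spread more widely on the residual than on the recurrent arrays. Recurrent 1 was lowest of the 4 for 8 of the 10 members, against 26.8% of the genes above background. The exceptions were Vegfa, where it was highest, and Ddit4, where recurrent 2 was lowest.

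Recurrent 3 was highest for 6 members, Egln1, Egln3, Car9, Bnip3, Adm and Ddit4, against 27.1% of the genes above background. Recurrent 4 was highest for 3, Ankrd37, Ndrg1 and Hif1a. The median distance from the primary mean over the 10 members was -0.89 on recurrent 1, -0.41 on recurrent 2, 0.41 on recurrent 3 and 0.18 on recurrent 4, against values between -0.02 and -0.03 over the genes above background. Between the lowest and the highest recurrent array the levels differed by 4.83 for Car9, 2.74 for Adm, 2.47 for Ankrd37, 2.08 for Bnip3 and 1.81 for Egln3. Members share arrays and may share regulation, so these counts are a description of 4 arrays and carry no test.

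**Figure D3:**
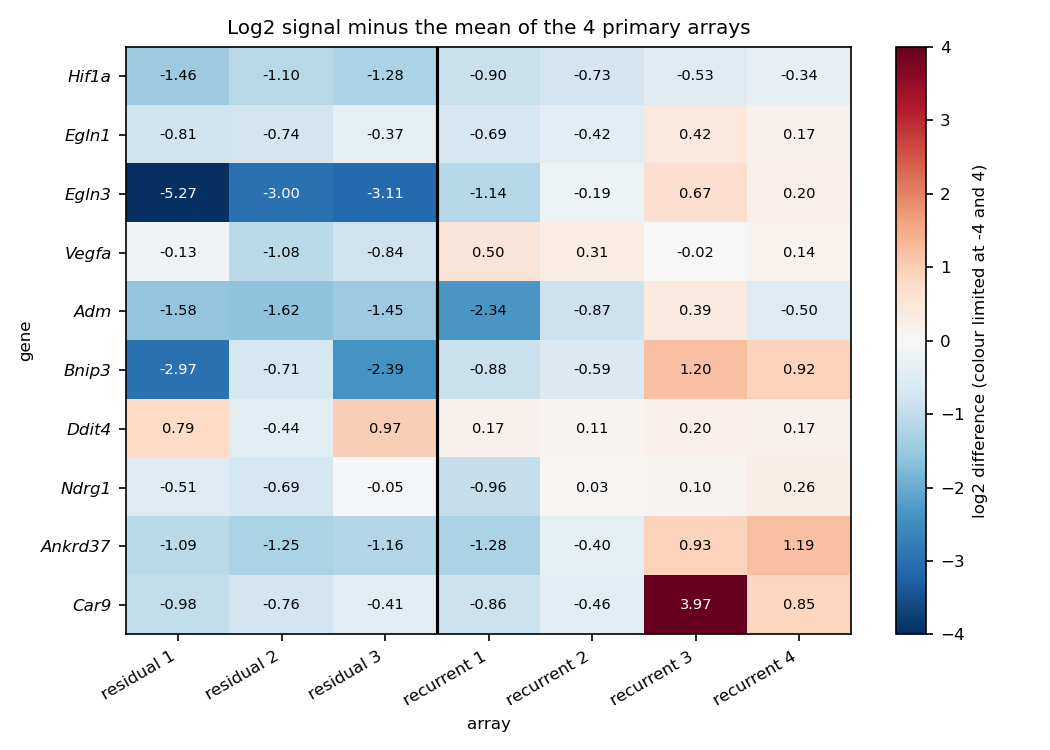
Log2 signal of each member (rows) on each residual and recurrent array (columns) minus the mean of the 4 primary arrays; colours are limited at -4 and 4. The residual columns are negative except for Ddit4 on residual 1 and residual 3. Recurrent 1 is negative except for Vegfa and Ddit4, and recurrent 3 is positive except for Hif1a and Vegfa, with 3.97 for Car9.

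Of 19 measured genes for HIF subunits, hydroxylases and the VHL ligase, 3 were lower in residual against primary cells, Egln3, Hif1a and Eloc, and 16 did not pass, where 12.4% of all genes passed. Eloc, the elongin C that holds VHL in its ligase, fell by 0.83 (SE 0.23, adjusted p = 0.0336, limma). With the members left out, the median of the other 16 was 0.01 in residual against primary cells, 0.00 in recurrent against primary cells and 0.06 in recurrent against residual cells, and 1, 0 and 0 of the 16 passed in limma. At an unadjusted p under 0.05 there were 8, 2 and 3 of the 16, against 6141, 3234 and 4706 of all 23835 genes. In recurrent against primary cells Siah1a, a ubiquitin ligase known to act on the hydroxylases, came next after Hif1a, at 0.70 (adjusted p = 0.111, limma). Arnt, the stable partner, read 7.77 to 8.02 on the primary arrays, 8.24 to 8.32 on the residual arrays and 7.61 to 8.26 on the recurrent arrays. Epas1, the related subunit HIF2A, read 5.71 to 6.57, 6.18 to 6.65 and 5.91 to 6.78 in the same order, and its groups overlapped. Arnt and Epas1 were named for their role, outside the rule for named genes.

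Genes of glucose uptake, glycolysis and lactate export, many of them known HIF targets, were lower in residual cells for 11 of 21 measured members and higher for 0. Over all genes 12.4% passed in that comparison and 7.61% were lower. The 11 include a gene that lay within the background range on all arrays. The median of the 21 was -0.87, against 0.03 over all genes. Hk2, the first enzyme of glucose use, read 5.45 to 5.60 on the residual arrays and 6.81 to 7.87 on the primary arrays and fell by 1.98 (SE 0.24, adjusted p = 0.000324, limma). Pfkl, a phosphofructokinase, fell by 1.97, Pfkp, its platelet form, by 1.93, and Tpi1, triose phosphate isomerase, by 1.57. In recurrent against residual cells 5 of the 21 rose and 0 fell, with a median of 0.53. Over all genes 5.78% passed there and 3.58% were higher. Pfkl rose by 1.41, Hk2 by 1.20, Tpi1 by 1.08 and Ldha, which makes lactate, by 1.00 (adjusted p = 0.0107, 0.0148, 0.00865 and 0.0145, limma).

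None of the 21 passed in recurrent against primary cells in limma, although 12 had an unadjusted p under 0.05, 17 had a negative difference and the median was -0.49. Of all 23835 genes, 3234 had an unadjusted p under 0.05 and 12201 a negative difference, with a median of -0.01. Slc16a1, a lactate transporter, stood at -1.37 (SE 0.33, adjusted p = 0.0669, limma), and Slc2a3, a glucose transporter, at -1.49 (adjusted p = 0.117). Slc2a3 read 5.50, 6.82, 4.63 and 4.35 on the recurrent arrays, so it did not follow the members, which were low on recurrent 1. The mean of the glycolysis list was 6.62, 6.99, 7.12 and 7.22 on the recurrent arrays, against 7.41 to 7.61 on the primary arrays. On recurrent 1 it lay within the residual range of 6.46 to 6.63, and 19 of 21 genes read below all primary arrays there, against 7 of 21 on recurrent 3 and 32.1% and 31.6% of the genes above background on these arrays.

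The 48 other HIF target genes did not move as a block. In residual against primary cells 12 were lower, 9 higher and 27 did not pass, with a median of -0.17. Over all genes 12.4% passed there, 7.61% lower and 4.81% higher. The 9 include a gene that lay within the background range on all arrays. Tmem45a, a membrane protein, read 5.69 to 6.20 on the residual arrays and 8.20 to 8.61 on the primary arrays (log2 fold change -2.37, adjusted p = 5.14e-05, limma). Tfrc, the transferrin receptor for iron uptake, changed by -2.39 and Fam162a, a mitochondrial protein, by -2.24. Tfrc lay inside the background range on residual 3, so its size is not exact. Cxcl12, a chemokine that stromal cells also make, rose by 2.91 (SE 0.51, adjusted p = 0.00346, limma).

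Of the 48, 3 fell in recurrent against primary cells, Tmem45a, Angptl4 and Fam162a, where 1.8% of all genes passed and 0.986% were lower. Tmem45a read 4.80, 4.35, 3.78 and 4.14 on the recurrent arrays, below every residual array and on recurrent 3 inside the background range, and changed by -4.13 against primary cells (SE 0.21, adjusted p = 3.58e-06, limma). Angptl4, an inhibitor of lipoprotein lipase, fell by 1.28 (adjusted p = 0.0437) and Fam162a by 0.92 (adjusted p = 0.0331). This count was 1 of 48 without any 1 primary array or recurrent 2. In recurrent against residual cells 6 rose and 6 fell, where 3.58% of all genes were higher and 2.19% lower. As single arrays were left out, 4 to 13 passed (4 without residual 3, 5 without residual 2, 6 without residual 1 and 7 without recurrent 2). Flt1, a receptor of VEGFA, rose by 2.42 and Tfrc by 1.78, while Car12 changed by -2.21 and Tmem45a by -1.76. These sizes are not exact. Flt1 lay inside the background range on residual 1, Tfrc on residual 3, Car12 on recurrent 4 and Tmem45a on recurrent 3.

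From this list Plod2, a lysyl hydroxylase of collagen, is named here after its values were seen. Among the recurrent arrays it was lowest on recurrent 1, as most members were. It read 6.93, 7.84, 9.34 and 9.57 on them, against 8.29 to 8.54 on the primary arrays. On the residual arrays it read 8.87 to 8.94, above every primary array, whereas 9 of the 10 members had a negative difference there. Its own difference of 0.48 in residual against primary cells did not pass (adjusted p = 0.614, limma). Recurrent 1 was lowest of the recurrent arrays for 25 of the 48 genes, while the highest were spread, 7 on recurrent 1, 16 on recurrent 2, 13 on recurrent 3 and 12 on recurrent 4.

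**Figure D4:**
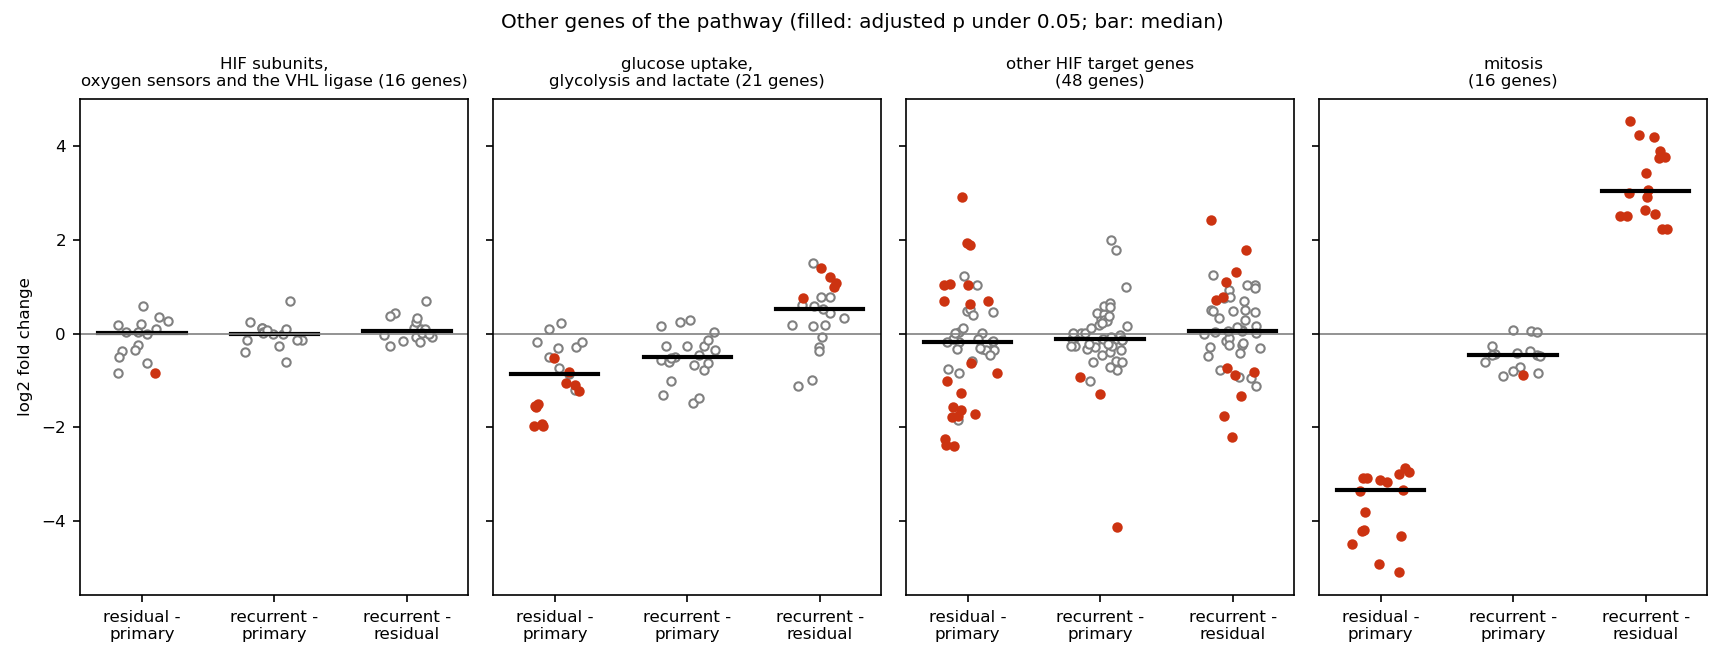
Log2 fold changes (vertical axis) of other genes of the pathway and of mitosis genes in 3 comparisons; each point is a gene, filled where it passed at an adjusted p under 0.05, and bars are medians. The medians of the glycolysis list are -0.87, -0.49 and 0.53, those of the other HIF targets -0.17, -0.11 and 0.07, and those of the mitosis list -3.34, -0.46 and 3.04.

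Relatives of single members passed in both directions. Of 16 carbonic anhydrases 2 passed in residual against primary cells, where 12.4% of all genes did. Car12, a membrane form that is also a HIF target, rose by 1.94 and Car13, a cytosolic form, fell by 1.57 (adjusted p = 0.000157 and 0.000813, limma). Car12 read 6.68, 6.01 and 6.68 on the residual arrays, where Car9 was in the background range, and 4.26 to 4.78 on the primary arrays. Of the 16, 1 passed in recurrent against primary cells, where 1.8% of all genes did. This was Car2, a cytosolic form, which fell by 2.34 (adjusted p = 0.0269) and was inside the background range on recurrent 3 and recurrent 4. None of the 4 Ndrg genes passed in limma in any comparison, and at an unadjusted p under 0.05 there were 1 in residual against primary cells, 2 in recurrent against primary cells and 0 in recurrent against residual cells. Of all 23835 genes, 6141, 3234 and 4706 had an unadjusted p under 0.05 in the same order. Ndrg3 gave the smallest adjusted p, 0.0745, at 0.79 in residual against primary cells, and in the other comparisons the 4 genes gave adjusted p values of 0.194 to 0.912.

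Among 16 VEGF and adrenomedullin ligands and receptors, 1 fell and 1 rose in residual against primary cells, where 12.4% of all genes passed. Pgf, placental growth factor, fell by 1.76 (adjusted p = 0.0304), and Calcrl, the receptor of adrenomedullin, rose by 0.85 (adjusted p = 0.0367, limma) within the background range on all 11 arrays. Flt1 read 7.83, 7.97, 5.06 and 6.74 on the recurrent arrays and 3.71, 4.97 and 4.75 on the residual arrays, and like Vegfa was lowest on recurrent 3 among the recurrent arrays. In recurrent against primary cells 0 of 16 passed in limma, with 3 at an unadjusted p under 0.05. Over all genes 1.8% passed in that comparison, and 3234 of 23835 had an unadjusted p under 0.05. Vegfc, a factor of lymphatic growth, stood at 1.12 (adjusted p = 0.0789) and Nrp2, a co-receptor, at 0.52 (adjusted p = 0.197).

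Of 10 mitophagy receptors and partners of Ddit4, 2 were higher and 2 lower in residual against primary cells, where 12.4% of all genes passed. Besides Bnip3, Phb2, a prohibitin of the inner mitochondrial membrane, fell by 0.97. Txnip, a glucose-responsive inhibitor of thioredoxin, rose by 1.99, and Ddit4l, the close relative of Ddit4, rose by 1.73 (adjusted p = 0.000339, 0.0213 and 0.000975, limma). Ddit4l read 7.99, 6.97 and 7.93 on the residual arrays, lowest on residual 2 as Ddit4 was. It fell by 2.39 in recurrent against residual cells (adjusted p = 0.000198), and Phb2 by 0.56 in recurrent against primary cells (adjusted p = 0.0274). Of 11 genes of the ATF4 stress response, another input to Ddit4 and Vegfa, 1 fell in residual against primary cells, Psat1, an enzyme of serine synthesis. Psat1 changed by -3.22 there and by 2.44 in recurrent against residual cells (adjusted p = 6.43e-06 and 0.000101, limma), but residual 1 and residual 3, at 3.95 and 3.87, lay inside the background range, so the sizes are not exact. In recurrent against primary cells 0 of the 11 passed in limma, with 2 at an unadjusted p under 0.05 and Psat1 at -0.78. Over all genes 1.8% passed in that comparison, and 3234 of 23835 had an unadjusted p under 0.05.

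Across the 11 arrays, the genes most like Egln3 in pattern, out of 2788 that were above background on at least 3 arrays with an SD of at least 0.5, were Nampt, Hells, Asf1b, Chaf1a and Cit. Their Pearson correlations with Egln3 were 0.98, 0.97, 0.97, 0.96 and 0.96. The arrays fall into groups, and any gene low in the 3 residual arrays and high in the other 8 scores well on this measure. Among the members Bnip3 came closest, at 0.90 and place 109, followed by Hif1a at 0.84. Nampt, which makes a precursor of NAD, read 5.32, 6.08 and 6.09 on the residual arrays, lowest on residual 1 as Egln3 was.

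Mitosis genes, fibroblast markers and some macrophage markers moved with the stages. Over all genes 12.4% passed in residual against primary cells, 1.8% in recurrent against primary cells and 5.78% in recurrent against residual cells. All 16 mitosis genes fell in residual against primary cells and rose in recurrent against residual cells, with medians of -3.34 and 3.04. On residual 1, residual 2 and residual 3 only 5, 11 and 8 of the 16 lay above the background range, so these sizes are not exact. Anln, a scaffold of the dividing cell, changed by -4.90 and 4.53 and Ube2c, a mitotic ubiquitin enzyme, by -5.09 and 4.19, with Anln inside the background range on residual 1 and residual 3. The part of this difference in the members' levels was not tested. Among the recurrent arrays the mean of the mitosis list was 7.87, 7.46, 7.67 and 7.87, lowest on recurrent 2, while members were lowest on recurrent 1. Of 10 fibroblast markers 9 were higher in residual and 7 in recurrent against primary cells, led by Dpt, a matrix protein, at 5.08 and 5.14. The mean of that list was 6.45 to 7.21 on the primary arrays, 8.93 to 10.15 on the residual arrays and 8.94 to 9.81 on the recurrent arrays, and 0 of 10 passed between recurrent and residual cells in limma, with 1 at an unadjusted p under 0.05. Macrophage markers were lower in residual cells for 3 of 9 genes, with list means of 6.34 to 7.10 on the primary arrays, 5.28 to 6.05 on the residual arrays and 5.70 to 6.77 on the recurrent arrays. Cd14, a receptor that macrophages carry, fell by 1.46 in residual and by 1.00 in recurrent against primary cells (adjusted p = 0.000901 and 0.0244, limma). None of 7 pericyte, 8 lymphocyte and natural killer, or 5 erythroid markers passed in any comparison in limma, with at most 3 of a list at an unadjusted p under 0.05. In RNA from sorted bulk cells, fewer cells of a type and less RNA per cell cannot be told apart, and the part of these markers in the members' levels was not tested.

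The labelled cell type was checked against epithelial markers, of which 5 to 7 of 10 lay above background on each array. Krt8 and Krt18, keratins of luminal cells, read 8.18 to 10.16 and 7.08 to 10.59 and were lower in residual against primary cells, with log2 fold changes of -1.67 and -2.32, while Krt14, a basal keratin, was higher by 2.73. The other 7 of the 10 did not pass there. Over the 10, 7 differences were positive and 3 negative, with a median of 0.32. Epcam, an epithelial adhesion protein, was above background on 1 array, residual 2, at 6.29. That array was also the one with the highest Bnip3 and the lowest Ddit4 of its group. Of 10 endothelial markers 1 was higher in residual against primary cells, Erg, a transcription factor of endothelium (log2 fold change 1.19, adjusted p = 0.0495, limma), which was above background on 3 of 11 arrays. On any array 1 to 4 of the 10 lay above background, and Kdr, which defines endothelium, on 0 of 11. Cdh5, a cadherin of endothelium, read 10.13 on recurrent 3, the array with high Car9, and 4.66 to 5.09 on the other recurrent arrays, while 2 of the 10 markers were above background there.

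**Figure D5:**
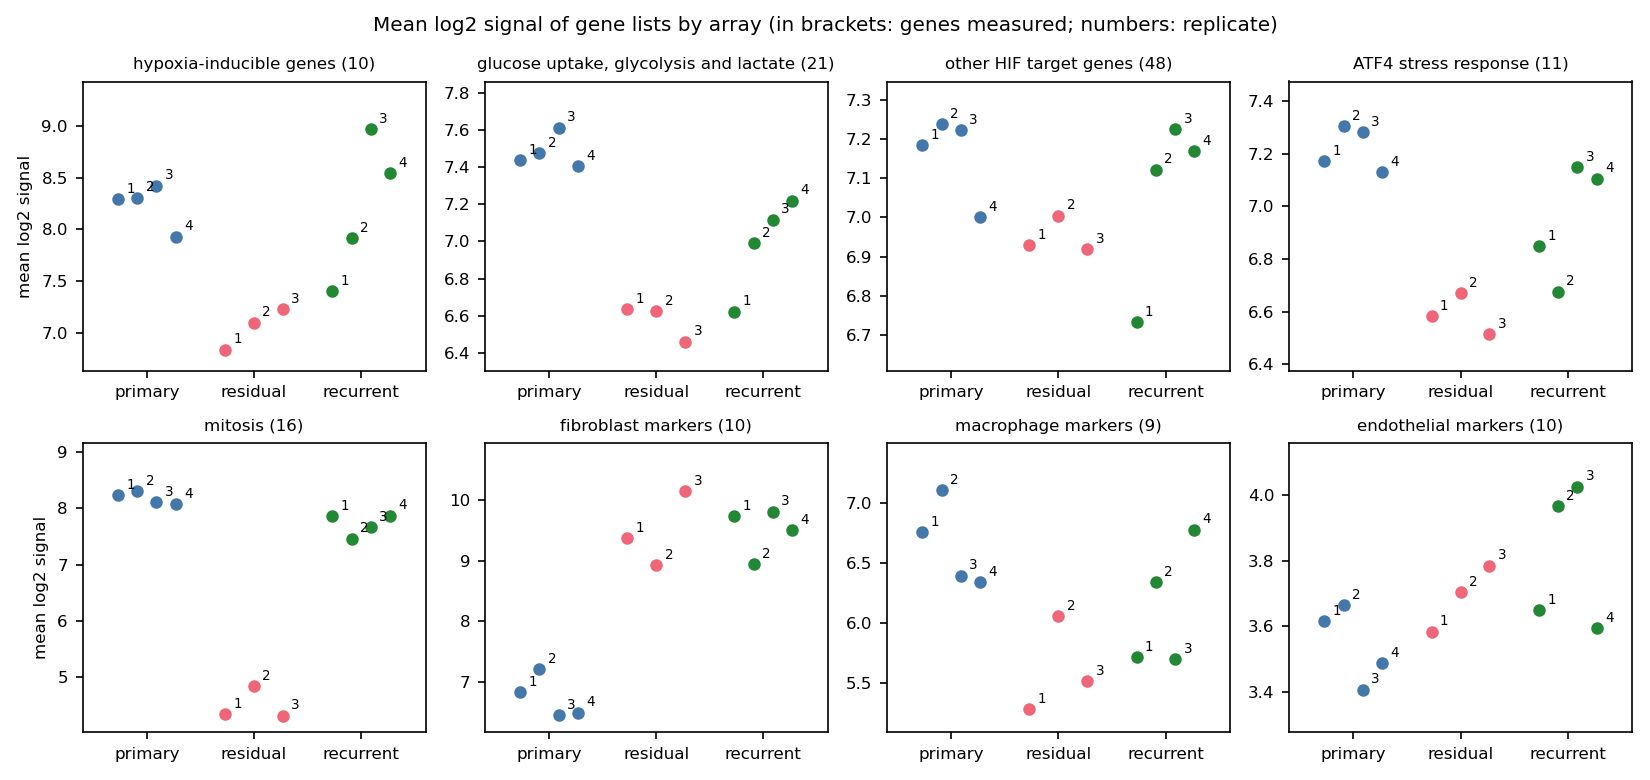
Mean log2 signal (vertical axis, separate scale in each panel) of 8 gene lists on each primary, residual and recurrent array, with points numbered by replicate. Means of the hypoxia-inducible genes are 7.40 on recurrent 1, 7.92 on recurrent 2, 8.97 on recurrent 3 and 8.54 on recurrent 4, against 7.93 to 8.42 on the primary arrays. The mitosis list does not follow that order on the recurrent arrays.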

How the data were processed

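The authors deposited 1 table of log2 signals for 11 arrays, made with RMA and R 3.0.2, per the submitters' processing notes, from biotinylated cRNA of total RNA. It has 24479 rows, 1 per Entrez Gene identifier. No source names the version of the probe annotation, and depth has no meaning for arrays, whose number limits the precision. The deposited log2 values, from 1.10 to 13.34, were used unchanged. RMA compresses differences between dim signals. Symbols came from the platform's table for 23281 rows and, by Entrez identifier, from the GRCm38.p6 reference for 556; 642 had none and 2 dimmer second rows were dropped, leaving 23835 genes. Titles gave group and replicate number.

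The 3 comparisons were fitted in limma 3.58.1 (R 4.3.3), with 8 residual and 3.46 prior degrees of freedom, 2-sided, and the fit was tested on simulated data. The background range ends at the 95th percentile of 1083 olfactory receptors, which was 4.00 to 4.39 on the 11 arrays. "Genes above background" exceeded it on at least 3 arrays. Members, lists, tests and alternatives were chosen with earlier results of these data known. The rule for named genes took all members, up to 4 passing genes of each list with the largest change in each comparison (or the 2 with the smallest p), and the 5 genes most like Egln3. A gene named outside it is said to be so, and Cdh5, Kdr, Epcam and Plod2 were chosen after their values were seen. Not every gene the rule took is reported. Same-numbered arrays did not deviate together (correlations -0.08 to 0.02), so numbers were not used as pairs. Figures used matplotlib 3.10.9 in Python 3.11.15.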

Additional observations from a re-analysis of the deposited data

Results flagged for a closer look

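Among 58 genes named here, 3 in the primary group and 3 in the recurrent group had 1 array far from the other 3, by the gap to the nearest array divided by the group's range. Chance flags about 1 in 20 groups, and 9.20% of all genes were flagged in the primary group and 9.42% in the recurrent group. None of the 10 hypoxia-inducible genes was flagged in either group, Car9 included, because recurrent 4 lay between recurrent 3 and the others. Cdh5 read 10.13 on recurrent 3, with a gap of 0.92 of the range. Phb2 read 9.53 on primary 2 (0.94), Ndrg4 5.11 on primary 3 (0.90), and Epcam 3.32 on recurrent 2 (0.84), inside the background range. Erg read 3.75 on primary 1 (0.88), inside the background range, and 4.92 on recurrent 2 (0.86). Groups of 3 arrays were not examined in this way.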

How the results depend on the processing

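Each choice was changed alone in 20 alternatives. Of 200 values for single members per comparison, 181 in residual against primary, 185 in recurrent against primary and 179 in recurrent against residual cells kept their direction and their side of the threshold. The calls of Egln3 and Hif1a in residual against primary cells, and of Egln3 in recurrent against residual cells, held in all 20. With arrays left out in turn, 2 to 4 members, 2228 to 3073 genes and 15 to 21 other HIF targets passed in residual against primary cells. The same ranges were 0 to 1, 203 to 420 and 1 to 3 in recurrent against primary cells, and 1 to 4, 936 to 1325 and 4 to 13 in recurrent against residual cells. Fitted on only the groups compared, 7 members and 3165 genes passed in residual against primary cells. In that setting 1 other HIF target passed in recurrent against primary cells. In recurrent against residual cells 1 member, 609 genes and 3 other HIF targets passed in it. With the replicate block, an unsupported pairing, 277 genes passed in recurrent against primary cells, and 1 member, 872 genes and 6 other HIF targets in recurrent against residual cells. In recurrent against primary cells 1 member, Hif1a, passed with median centring, without dim genes, with trend and robust moderation, and with array weights. In recurrent against residual cells 1 member passed after quantile normalization and after scaling to 1 interquartile range. At an adjusted p under 0.01, 1375 genes and 9 other HIF targets passed in residual against primary cells, 142 and 1 in recurrent against primary cells, and 521 and 3, with 1 member, in recurrent against residual cells. Leaving out arrays turned the sign of uncalled differences in recurrent against primary cells, with ranges of -0.25 to 0.57 for Ankrd37, -0.19 to 0.51 for Bnip3, -0.32 to 0.054 for Egln1, -0.38 to 0.23 for Egln3, -0.34 to 0.13 for Ndrg1 and -0.15 to 1.46 for Car9. The cause was not tested. Differences of dim genes such as Car9 are limited by signal over background, and groups of 3 and 4 arrays limit the precision of all.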
